A study of Mus musculus with 11 samples.

Results

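The 8 MHC class II presentation genes H2-Aa, H2-Ab1, H2-Eb1, H2-DMa, H2-DMb1, Cd74, Ciita and Cd209a were followed in mouse heart RNA 3 days after myocardial infarction (MI). They were taken by name from a table of 55421 genes, and all 8 were found. Hearts came from 11 female C57BL/6J mice aged 8 weeks, a wild-type inbred strain. Of these, 4 mice (A105, A127, A128 and A129) had their left anterior descending coronary artery ligated and received the solvent DMSO. Another 4 (A116, A117, A119 and A120) were ligated and received A10i (GI254023X), an inhibitor of the metalloprotease ADAM10, at 100 mg/kg dissolved in DMSO. Osmotic minipumps delivered either treatment. The sham group held 3 mice (S1, S2 and S3) that received DMSO and gave healthy heart tissue. The tissue of ligated hearts is labelled as infarct border zone, and by the methods it was cut out with the infarct itself, so the comparisons with sham differ in infarction and in the piece of heart sampled, which cannot be told apart. Each library was 1 mouse.

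MHC class II molecules carry peptides from engulfed material to the cell surface, where CD4+ T cells read them. They are pairs of an alpha and a beta chain, made mainly by dendritic cells, B cells and part of the macrophages, and the heart holds resident class II positive macrophages. In the endoplasmic reticulum the invariant chain Cd74 fills their groove. In endosomes proteases cut it down and the H2-DM pair exchanges its last fragment for a peptide. Ciita, a co-activator without a DNA contact of its own, switches the genes on through proteins that sit on shared X and Y boxes of their promoters.

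Promoter stretches of 3 members are shown because these genes share one transcription switch and their levels are compared with each other throughout. They were read from RefSeq (GRCm38.p6). Promoters of 5 of the 8 members were searched, from 250 bases before to 50 bases after the start. Those of H2-Ab1, Cd74 and Ciita were not searched. Capitals mark the Y box core GATTGG and a part of the X box, ACNGATG, both searched on both strands.
H2-Eb1, chr17:34305757-34305822, plus strand: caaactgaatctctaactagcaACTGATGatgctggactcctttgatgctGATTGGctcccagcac
H2-DMb1, chr17:34153079-34153144, plus strand: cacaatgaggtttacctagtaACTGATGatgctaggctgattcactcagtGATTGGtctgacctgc
H2-Aa, chr17:34287857-34287922, minus strand: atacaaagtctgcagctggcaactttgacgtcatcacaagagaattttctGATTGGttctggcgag

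In these stretches the Y box core began 60 bases before the start in H2-Eb1 (position -60), at -62 in H2-DMb1 and at -49 in H2-Aa. H2-Eb1 and H2-DMb1 held the X box letters upstream of it, with 21 and 22 bases between the motifs. H2-Aa held no ACNGATG in the stretch shown. Its one match to those letters lay on the other strand at -232 to -226. Of 2 H2-DMa promoters, 1 held GATTGG at -199 to -194, and the Cd209a promoter matched neither motif. Among 32851 promoters of the same length, 16.1% held GATTGG, 9.85% held ACNGATG and 1.52% held both. The order X before Y on the sense strand, at most 30 bases apart, occurred in 11 promoters (0.0335%), and 4 of these belong to class II genes, H2-Eb1, H2-Eb2, H2-DMb1 and H2-DMb2. These matches describe letters only and were not tested for binding.

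Libraries held 21702623 to 29511768 counts. Values per mouse are normalized read counts, that is, counts scaled by TMM factors to a common library size of 25576712. Genes were called at an adjusted p under 0.01 by the quasi-likelihood test of edgeR, with Benjamini-Hochberg adjustment over all genes tested. Of the 8 members, 7 passed its filter on low counts in every comparison and Cd209a in none. Cd209a passed in a joint fit of all 11 libraries and in some fits without 1 mouse. No pair of replicates looked like 1 library counted again, since their chi-square per degree of freedom was 4.04 to 60.8. In DMSO hearts 1 mouse, A128, was the lowest of its group for all 8 members, so results are given with and without it. In bulk tissue fewer class II positive cells and less class II RNA per cell cannot be told apart.

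The alpha chain H2-Aa and the beta chains H2-Ab1 and H2-Eb1 lie next to each other on chromosome 17 (mm10), H2-Aa at 34282744 to 34287823 on the minus strand, H2-Ab1 at 34257689 to 34269419 and H2-Eb1 at 34305867 to 34316674, both on the plus strand. H2-Aa had 1134, 1122 and 754 normalized counts in the sham mice S1, S2 and S3. In the DMSO mice A105, A127, A128 and A129 it had 527, 622, 178 and 614. In the A10i mice A116, A117, A119 and A120 it had 1098, 586, 841 and 828. All 4 DMSO hearts lay below all 3 sham hearts, whereas A10i hearts overlapped with both.

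H2-Eb1 followed the same order of groups. It had 964, 989.6 and 678 normalized counts in sham, 449.6, 555, 146 and 515 in DMSO, and 831, 512, 727 and 722 in A10i hearts, with the mice listed as for H2-Aa. Again no DMSO heart reached the lowest sham heart. Its usual partner, the E alpha chain, is not made in C57BL/6J mice, whose gene is a pseudogene. H2-Ea-ps was at 0 counts in all 11 libraries, which allows up to 3 counts in each.

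H2-Ab1, the beta chain that pairs with H2-Aa, had 822, 870.1 and 586 normalized counts in sham hearts. The DMSO hearts had 502, 611, 139 and 549.9 and the A10i hearts 935, 486, 707 and 711. Here DMSO mouse A127 lay above sham mouse S3, so the DMSO and sham groups overlapped.

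Cd74 (chromosome 18, 60803848 to 60812652, plus strand) encodes the invariant chain, which is made in excess over the class II chains. It had 2690.1, 2707 and 2033 normalized counts in sham hearts. The DMSO hearts had 1455, 1671, 426 and 1438, all below sham. The A10i hearts had 2616, 1597, 2082 and 2069.6, with A117 within the DMSO range and A116, A119 and A120 above it. The spread within DMSO (SD of 44.7% of the mean) was wider than in A10i (19.9%) and sham (15.5%), but this rests on A128, without which it was 8.55% and the narrowest of the 3 groups.

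The H2-DM pair, the peptide editor of endosomes, was scarcer than the classical chains in every library and showed another pattern. H2-DMa (chromosome 17, 34119541 to 34139101, plus strand) had 87.5, 95.6 and 70.1 normalized counts in sham, 129.4, 96.0, 49.3 and 106 in DMSO, and 149, 74.2, 132 and 110.4 in A10i hearts. H2-DMb1 (chromosome 17, 34153072 to 34160230, plus strand) had 73.1, 98.5 and 67.0 in sham, 72.2, 96.0, 43.4 and 81.3 in DMSO, and 137, 62.3, 115 and 109 in A10i hearts. For both genes all 3 groups overlapped. The near-identical H2-DMb2 had 5.1 to 33.5 normalized counts, and the split of reads between the DMb copies is uncertain. H2-DMa shares sequence with the opposite-strand gene Brd2 (2346 to 3629 counts), and the strand setting of the counting is not given in the sources used here.

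Ciita, the class II transactivator (chromosome 16, 10480059 to 10528418, plus strand), was low. It had 46.5, 48.8 and 42.3 normalized counts in sham, 49.6, 49.7, 14.5 and 56.2 in DMSO, and 96.3, 31.7, 60.2 and 64.4 in A10i hearts. Without A128 the other 3 DMSO hearts lay just above the 3 sham hearts. Dexi, on the opposite strand, overlaps it and had 370 to 556 counts.

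Cd209a, a lectin receptor used as a marker of monocyte-derived dendritic cells (chromosome 8, 3743397 to 3748984, minus strand), was at the limit of detection. It had 7.75, 4.78 and 5.16 normalized counts in sham, 15.1, 6.00, 1.70 and 11.04 in DMSO, and 17.2, 8.90, 7.39 and 4.60 in A10i hearts. These stand on 2 to 17 reads per library, and no difference between groups was detectable at this depth. Of its 6 relatives on the list, only Cd209f passed the filter, and the other 5 had at most 5 counts in DMSO and sham hearts.

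**Figure D1:**
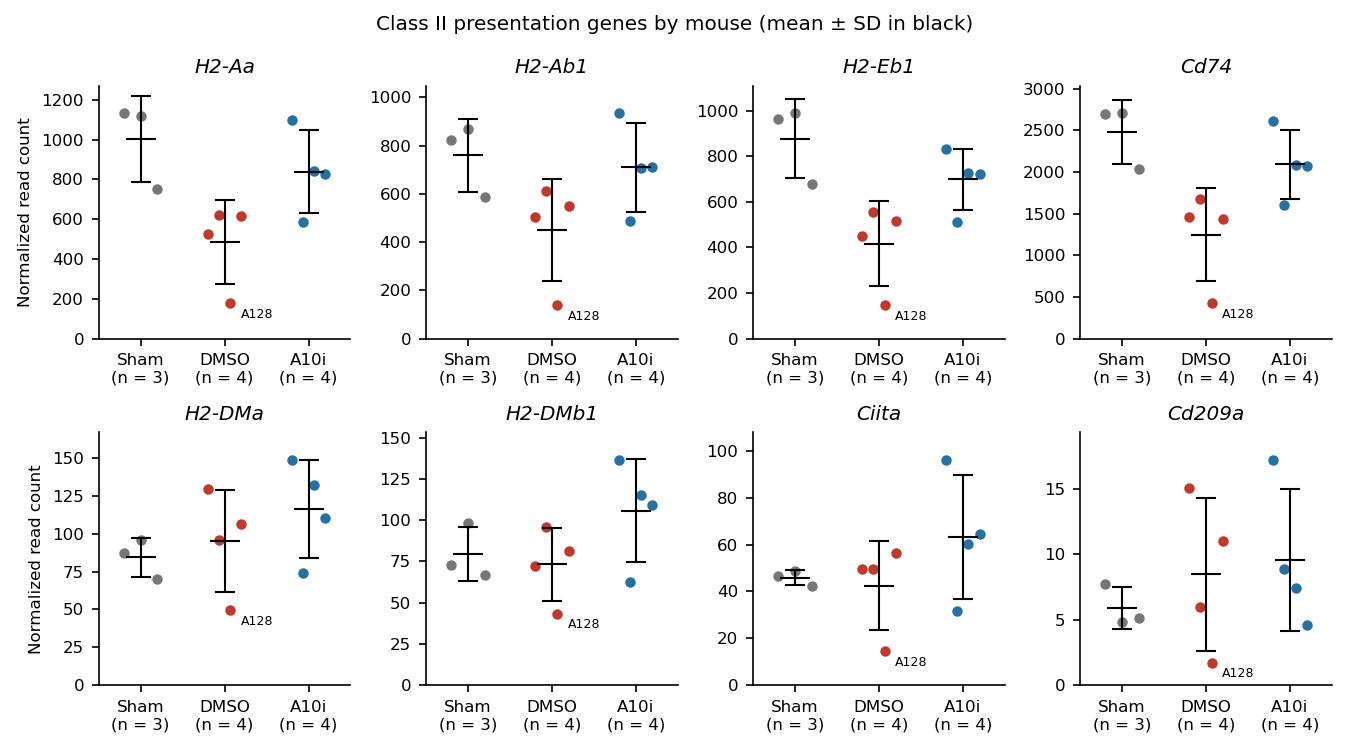
Normalized read counts (y axis, linear from 0) of the 8 genes in sham, DMSO and A10i hearts, with 1 point per mouse and the mean ± SD in black. H2-Aa, H2-Eb1 and Cd74 show all 4 DMSO points below the 3 sham points, and A128 is the lowest DMSO point in every panel.

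Scaled per kb of the lengths in the table, Cd74 stood first in sham hearts with 1475 normalized counts per kb, ahead of H2-Eb1 with 451. H2-Ab1 with 296 and H2-Aa with 264 per kb followed, and their ranges over the 3 mice overlapped (228 to 339 and 198 to 299). H2-DMb1 had 47.3, H2-DMa 24.5, Ciita 4.81 and Cd209a 3.72 per kb, and the ranges of the last pair overlapped. In DMSO and A10i hearts the order of the means was the same from Cd74 to H2-DMa, but in DMSO hearts the range of every neighbour in that order overlapped with the next. In A10i hearts H2-Eb1, H2-Ab1 and H2-Aa overlapped as neighbours, and so did H2-DMb1 (37.1 to 81.4) and H2-DMa (21.5 to 43.2). These ranges run over mice, whereas within every single library the order from Cd74 to H2-DMa was the same. In A128, the low end of each DMSO range, it ran 254, 75.2, 54.0, 46.8, 25.8 and 14.3 per kb. Each length joins the exons of all annotated transcripts, which lowers values per kb. It was long for H2-Aa (3798 bases), H2-DMa (3448 bases) and Ciita (9535 bases). In normalized counts without this scaling, H2-Aa stood above H2-Ab1 and H2-Eb1 in every library. H2-DMa then stood above H2-DMb1 in most libraries. The place of H2-Aa and H2-DMa in the order per kb thus rests on the lengths.

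After MI in DMSO controls, the classical chains and the invariant chain had lower fitted levels than in sham hearts, but none of the 7 members tested passed the threshold. The fitted log2 fold change was -1.05 ± 0.36 (SE) for H2-Aa, with an adjusted p of 0.0444 by edgeR's quasi-likelihood test. For H2-Eb1 it was -1.08 ± 0.37 (adjusted p = 0.0434, same test), for Cd74 -0.99 ± 0.38 (0.0651) and for H2-Ab1 -0.76 ± 0.40 (0.160). These correspond to 0.482, 0.473, 0.502 and 0.591 of the sham level. H2-DMa (0.16), H2-DMb1 (-0.13) and Ciita (-0.12) had log2 fold changes near 0 with adjusted p-values of 0.679 to 0.818. Of all 17117 genes tested, 22.5% passed the threshold in either direction and 9.6% were called lower.

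The 95% interval of the log2 fold change was -1.87 to -0.24 for H2-Aa, and for Ciita it was -0.98 to 0.73. In normalized counts 3 of 7 members, H2-Aa, H2-Eb1 and Cd74, had lower values in DMSO with no overlap between groups. Of all genes tested, 12.2% were lower without overlap, but this share used counts scaled by library size alone. On that other scale H2-Aa overlapped, with DMSO mouse A129 just above sham mouse S3, so members and share are not directly comparable. In an exact permutation test over the mice (two-sided) each of the 3 had p = 0.0571 with n = 4 and 3, and 0.0286 is the smallest p this design allows. The same 3 genes had an unadjusted edgeR p under 0.05, against 23.4% of all genes in the lower direction. The median log2 fold change of the 7 members was -0.76 and that of all genes 0.002.

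Leaving out A128 made these fold changes and their SE smaller. That mouse was singled out for its low values in these same genes, so leaving it out narrows the DMSO spread by selection. The p-values of this fit are therefore a description and not separate support. H2-Aa (-0.77 ± 0.16 SE, adjusted p = 0.00552), H2-Eb1 (-0.79 ± 0.15, 0.00383) and Cd74 (-0.70 ± 0.12, 0.00227) then passed edgeR's quasi-likelihood test, and all 3 were lower. Without that mouse 10.5% of 16788 genes tested were called lower. H2-Ab1 was at -0.45 (adjusted p = 0.039 by edgeR) and did not pass.

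In A10i hearts against the same 3 sham hearts, no member passed the threshold and none had an unadjusted edgeR p under 0.05. The log2 fold changes were -0.26 for H2-Aa, -0.09 for H2-Ab1, -0.33 for H2-Eb1 and -0.24 for Cd74. H2-DMa, H2-DMb1 and Ciita were at 0.46, 0.41 and 0.46. By edgeR the smallest adjusted p was 0.141 and the largest 0.754. Of 16971 genes tested, 22.9% were called in either direction and 9.11% lower, and 48.3% had an unadjusted p under 0.05. All 7 members overlapped between the groups in normalized counts. Of all genes, 10.8% were lower and 38.7% higher without overlap, but on counts scaled by library size alone. That scaling moved the median log2 fold change of all genes to 0.181, so these shares cannot be set directly against the members. The interval for H2-Aa reached from -0.74 to 0.23 and that for H2-DMa from -0.05 to 0.98. Both comparisons with sham use the same 3 sham mice and are therefore not independent.

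In the direct comparison of A10i with DMSO, all 7 members had higher fitted levels in A10i hearts, and none passed the threshold. The log2 fold change was 0.79 ± 0.34 (SE) for H2-Aa, 0.66 ± 0.38 for H2-Ab1, 0.75 ± 0.34 for H2-Eb1 and 0.75 ± 0.35 for Cd74. H2-DMa was at 0.30, H2-DMb1 at 0.53 and Ciita at 0.58. The smallest adjusted p by edgeR was 0.345 and the largest 0.709, and 0% of the 16792 genes tested passed the threshold. At an unadjusted p under 0.05, edgeR found 1 member, H2-Aa, against 7.1% of all genes in the higher direction. For no member did the groups separate in normalized counts. Of all genes, 3.33% did so in the higher direction, but on counts scaled by library size alone. H2-Aa had an exact permutation p (two-sided) of 0.0857 and Cd74 of 0.0571, with n = 4 mice each.

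The interval of the H2-Aa difference between A10i and DMSO was 0.03 to 1.56, and that of Ciita was -0.36 to 1.52. Without A128 the log2 fold change fell to 0.52 for H2-Aa, 0.47 for H2-Eb1, 0.46 for Cd74 and 0.36 for H2-Ab1, and H2-DMa came to 0.08. The unadjusted edgeR p was then 0.0205 for H2-Aa, 0.015 for H2-Eb1 and 0.013 for Cd74, so 3 members in place of 1 were under 0.05. None passed after adjustment (smallest adjusted p = 0.268 by edgeR). The share of all genes under 0.05 was not counted in that fit, so it is open whether 3 members exceed it. A128 was also singled out for its low values in these genes, which narrows the DMSO spread. The median over the members was 0.66 with all mice, beside 0.003 for all genes, and 0.35 without A128, when Cd209a also passed the filter, at -0.12, and 7 of 8 were higher. Within A10i hearts A116 was the highest mouse for all 8 members, and A117 the lowest for 7.

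**Figure D2:**
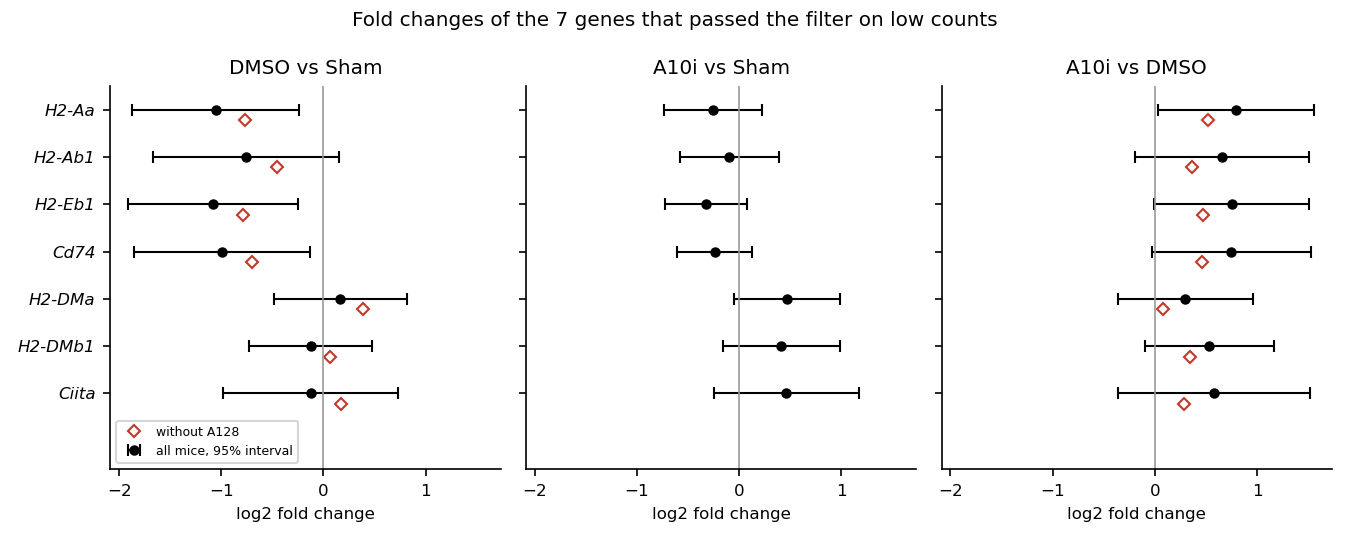
Log2 fold changes (x axis) of the 7 genes that passed the filter, one panel per comparison, with edgeR estimates and 95% intervals in black and estimates without A128 as open diamonds. H2-Aa, H2-Eb1 and Cd74 lie left of 0 with their whole interval in DMSO against sham, while in A10i against DMSO only the interval of H2-Aa (0.03 to 1.56) clears 0.

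Ratios within a library do not depend on scaling between libraries. They were taken as log2 of normalized counts plus 2, for 10 ratios in each comparison. For Cd74 over H2-Aa the sham mean was 1.31 ± 0.10 (SD, n = 3), with 1.34 ± 0.12 in DMSO and 1.33 ± 0.08 in A10i hearts (n = 4 each). H2-Eb1 over H2-Aa was -0.19 ± 0.04, -0.23 ± 0.05 and -0.25 ± 0.10 in the same order. Even in A128, where H2-Aa was lowest, these ratios were 1.25 and -0.28. Both ratios differed from sham by at most 0.06 log2 units in size in the group means, with exact permutation p-values (two-sided) of 0.286 to 0.829 across both infarcted groups.

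The peptide editor and the transactivator were shifted relative to H2-Aa. In DMSO against sham, H2-DMa over H2-Aa was higher by 1.28, H2-DMb1 over H2-Aa by 1.02 and Ciita over H2-Aa by 0.92 log2 units. None of these overlapped between the groups (exact permutation test, two-sided, p = 0.0286 each, the smallest it can give, and 0.0476 after Benjamini-Hochberg adjustment over 10 ratios). In A10i against sham, H2-DMa over H2-Aa differed by 0.69 and H2-DMb1 over H2-Aa by 0.64 with the same p-values. Ciita over H2-Aa differed by 0.62 (exact permutation p = 0.0857, adjusted 0.122). Between A10i and DMSO these 3 ratios differed by -0.59, -0.39 and -0.30, each with an exact permutation p of 0.0571 and 0.143 after adjustment.

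Sham hearts had -0.40 ± 0.06 for H2-Ab1 over H2-Aa, DMSO hearts -0.15 ± 0.15 and A10i hearts -0.24 ± 0.02. The difference of A10i from sham was 0.15 (exact permutation p = 0.0286, adjusted 0.0476). For DMSO against sham it was 0.25 (exact permutation p = 0.0571, adjusted 0.0714). The lower DMSO value of A128, -0.35, was the one near sham.

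Relative to a pan-leukocyte gene and to macrophage genes, H2-Aa was lower after MI. Ptprc, the pan-leukocyte antigen CD45, had 264 to 331 normalized counts in sham and 449 to 1149 in the infarcted hearts. It also counts neutrophils and monocytes. Their marker lists had median log2 fold changes of 7.22 and 2.76 in DMSO, and of 5.27 and 3.06 in A10i, against sham. The H2-Aa over Ptprc ratio had a sham mean of 1.73 ± 0.20 (SD, n = 3) and fell to -0.60 ± 0.55 with DMSO and 0.22 ± 0.34 with A10i (n = 4 each). This is a difference of -2.33 for DMSO and -1.51 for A10i, without overlap (exact permutation p = 0.0286, adjusted 0.0476, in both). Over Cd68, a lysosomal glycoprotein of macrophages, H2-Aa differed from sham by -3.46 in DMSO and -2.76 in A10i, and over Csf1r, the macrophage growth factor receptor, by -1.49 and -0.98, with the same p-values.

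Between A10i and DMSO, H2-Aa over Ptprc was higher by 0.82 in A10i hearts and did not overlap (exact permutation p = 0.0286, 0.143 after adjustment over 10 ratios). Without A128 the difference was 0.58 and the exact permutation p was 0.0857. Neutrophil markers, whose cells Ptprc also counts, had a list median of -1.84 in this comparison. Their part in the ratio was not tested. H2-Aa over Csf1r differed by 0.51 (exact permutation p = 0.171) and over Cd68 by 0.71 (0.143, unadjusted).

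**Figure D3:**
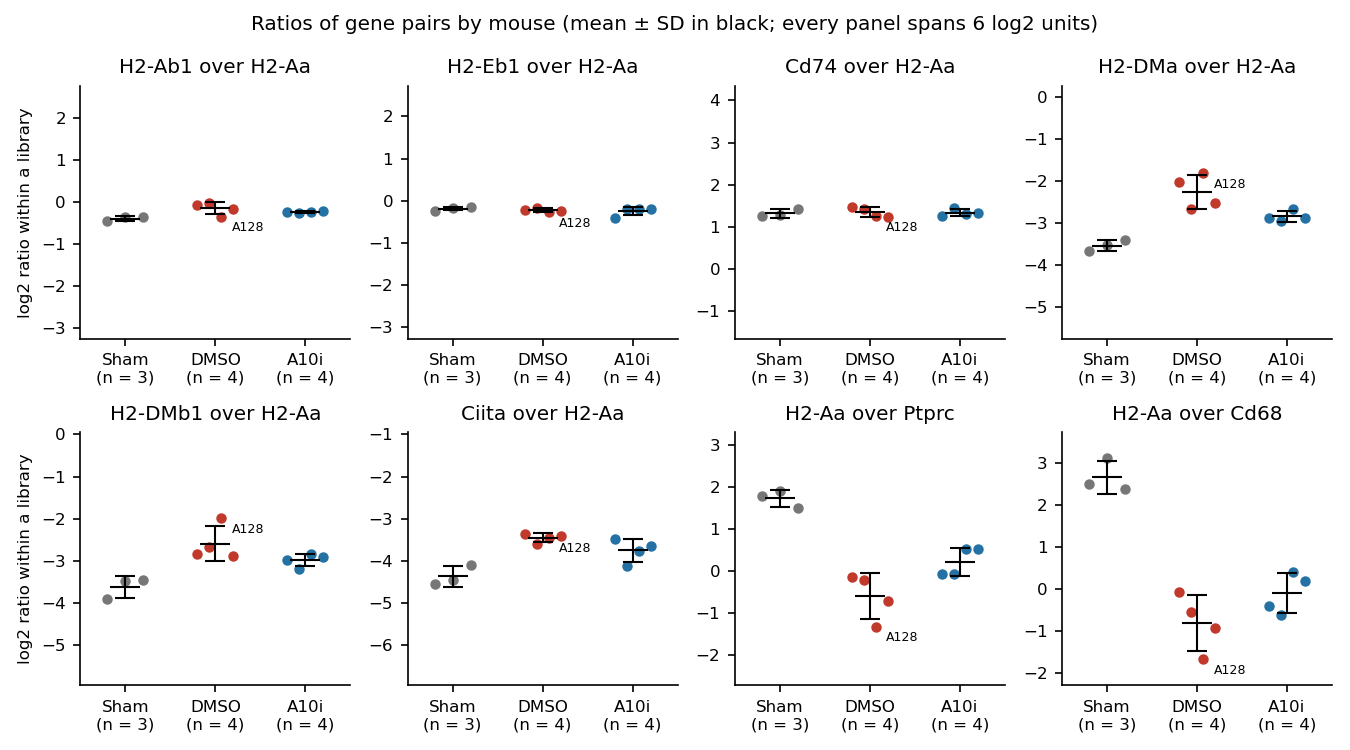
Log2 ratios of normalized counts within a library (y axis, 6 log2 units in each panel) by group, with 1 point per mouse and the mean ± SD in black. Cd74 and H2-Eb1 over H2-Aa stay at 1.31 to 1.34 and -0.25 to -0.19 in the group means, H2-DMa, H2-DMb1 and Ciita over H2-Aa are above sham in DMSO hearts, and H2-Aa over Ptprc and Cd68 is below sham in both infarcted groups.

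The other genes of the route were taken as lists, each described by how many of its tested genes passed the threshold. Among class II transcription factors (7 tested) only Rfxank, a subunit of the RFX complex on the X box, rose after MI. Its log2 fold change was 1.14 in DMSO (adjusted p = 0.00049 by edgeR) and 0.57 in A10i against sham (adjusted p = 0.0026 by edgeR). Its partners Rfx5 and Rfxap were at -0.38 and -0.37 in DMSO and did not pass. For comparison, 12.9% of all genes were called higher in DMSO and 13.7% in A10i against sham, and 9.6% and 9.11% were called lower. These shares also stand beside the counts of the lists that follow. In a list this short, 1 gene called does not stand out from them.

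On the interferon gamma route, the main inducer of Ciita outside dedicated presenting cells, Ifng itself had 0 to 1 counts in every library. Of 7 genes tested, Socs1, a feedback inhibitor of Jak kinases, rose in DMSO and A10i hearts (1.82 and 1.93, adjusted p = 0.0028 and 0.0013 by edgeR), and the receptor chain Ifngr2 fell (-0.46 and -0.45, adjusted p = 0.0047 and 0.0041 by edgeR). With 1 of 7 called in each direction, the list is near the shares of all genes. These were 12.9% and 13.7% higher, and 9.6% and 9.11% lower. Irf1 (-0.24 and 0.10), a factor that acts on the Ciita promoter, did not pass in either.

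Some of the enzymes that prepare class II cargo rose after MI. Of 9 genes for proteases and turnover, 4 rose in DMSO and 5 in A10i hearts against sham, none fell, and the list medians were 0.43 and 0.78. Ctss, the cathepsin that trims the invariant chain, rose from 385 to 447 normalized counts in sham to 979.7 to 3371 in DMSO and 1763 to 4390 in A10i hearts (log2 fold changes 2.21 and 2.59). Ifi30, the thiol reductase of endosomes, rose by 1.89 and 1.95, the asparagine endopeptidase Lgmn by 1.18 and 1.29 and Ctsb by 0.74 and 0.99. Sppl2a (-0.09 and -0.13) and the ubiquitin ligase March8 (-0.18 and -0.21) did not pass. Ctsl was called in A10i (0.59) and not in DMSO (0.41, adjusted p = 0.0431 by edgeR). Between A10i and DMSO none of the 9 passed, and Ctss differed by 0.37.

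Of 5 costimulatory genes tested, Cd80, a ligand of CD28 on T cells, rose in both infarcted groups (1.65 in DMSO and 1.59 in A10i), and Cd86, its close relative, was at 0.30 and 0.28 and did not pass. The antigen receptors on the other side of the contact were near the limit. The CD3 genes Cd3d, Cd3e and Cd3g had at most 6 counts in any library. Cd4 was at -0.50 in DMSO and 0.11 in A10i against sham, and Trac at -0.83 and 0.45, none past the threshold. In that list of 4 tested genes, Il2ra, a chain of the interleukin-2 receptor, fell in both infarcted groups (-1.83 and -1.39). Of all genes, 12.9% and 13.7% were called higher and 9.6% and 9.11% lower in DMSO and A10i against sham. The single calls of Cd80 and Il2ra do not set their lists apart from these shares.

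Other class II genes were scarce. H2-Ob, the beta chain of the H2-O inhibitor of H2-DM, had 20.6 to 37.3 normalized counts in sham, 8.50 to 18.9 in DMSO and 5.93 to 24.3 in A10i hearts, and its log2 fold change of -0.90 in DMSO did not pass (adjusted p = 0.0605 by edgeR). H2-DMb2 was at 0.77 in DMSO and 0.87 in A10i against sham and did not pass either. H2-Eb2 had 0 to 2 counts in sham, 1 to 9 in DMSO and 2 to 17 in A10i libraries, H2-Oa had at most 6 in any library, and neither was tested.

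MHC class I presentation, which shows peptides from inside the cell and serves CD8+ T cells, was compared as a list of 14 genes. In DMSO against sham 1 gene rose, the peptide loading factor Pdia3 (0.73), and the list median was -0.05, while without A128 the count of genes that rose was 2. In A10i against sham Pdia3 (0.82) and the heavy chain H2-D1 (0.42) rose and the median was 0.24. These counts do not exceed the shares of all genes called higher by much or at all (12.9% in DMSO and 13.7% in A10i). Between A10i and DMSO 12 of 14 had higher fitted levels, none passed, and the median was 0.19, beside 0.66 for the class II members. H2-K1, a classical class I heavy chain, had 3064 to 4181 normalized counts in DMSO and 4560.0 to 4735 in A10i hearts, without overlap (log2 fold change 0.38, adjusted p = 0.154 by edgeR).

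Markers of leukocytes, of which a part carries class II, moved in both directions. All 5 pan-leukocyte markers tested and 7 of 10 macrophage markers rose in DMSO against sham (list medians 2.08 and 0.90), and 5 and 9 did so in A10i (1.87 and 1.34). Among 10 dendritic cell markers tested against sham, Itgax (2.73 in DMSO and 2.38 in A10i) and Clec10a (0.89 and 1.33) rose in both, and Cd83 fell in DMSO (-1.43, with -0.83 and adjusted p = 0.0495 by edgeR in A10i). Flt3 was at 1.42 in DMSO (adjusted p = 0.0486 by edgeR) and 1.65 in A10i, and Irf8 at 1.07 (0.0126) and 1.19, and both passed in A10i alone. Zbtb46 was at -0.08 in DMSO and -0.05 in A10i, and Irf4 at -0.77 and -0.32, and neither passed. Of the 10 genes, 7 had higher and 3 lower fitted levels in each comparison with sham. In A10i against DMSO, Flt3 was at 0.23 and Irf8 at 0.11, and neither passed. The cross-presenting cell markers Clec9a and Xcr1 had at most 15 counts in any library. Summed over the dendritic list, sham hearts had 1538 to 1706 normalized counts, DMSO hearts 2165 to 4078 and A10i hearts 2270.0 to 3835. Fscn1 made up much of this sum, with means of 724.9, 1614 and 1558 in the same order. The mean of the list's log2 values overlapped between DMSO (4.317 in A128 to 5.37) and sham (4.436 to 4.658). In A10i hearts that mean was 5.02 to 5.685.

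Of the B cell markers, 1 of 4 tested passed the threshold in DMSO against sham. This was Ighm, the heavy chain of IgM, which fell (-1.09, adjusted p = 0.00073 by edgeR), whereas Cd79b was at 0.0044 and Bank1 at -0.22. Ighm had 194 to 207 normalized counts in sham, 79.9 to 108 in DMSO and 99.9 to 239 in A10i hearts. The summed level of the 11 B cell markers reached 250.5 to 359 in sham, 124 to 216 in DMSO hearts and 144 to 362 in A10i hearts, so DMSO and sham did not overlap. The mean of their log2 values did overlap (2.49 to 3.77 in DMSO and 3.03 to 4.18 in sham). Between A10i and DMSO no B cell gene passed, and the list median was 0.45 with all mice and -0.23 without A128. The defining markers Cd79a and Ms4a1 had 0 to 13 counts in DMSO and sham libraries, and A128 had 0 of both. The part of B cells in the class II differences was not tested.

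Cardiomyocyte markers also moved, with a summed level of 1492000 to 1534000 normalized counts in sham, 721600 to 1056000 in DMSO and 866800 to 1174000 in A10i hearts. In DMSO 2 of 5 fell and in A10i 1 of 5. Their part in the class II differences was not tested. By summed level A128 was not the lowest DMSO mouse for these markers (835100), for macrophage markers (16410, against 15190 in A105) or for neutrophil markers (3449). It was the lowest for pan-leukocyte markers (2640.0, with the next mouse at 3623), monocyte markers (10110), dendritic cell markers (2165, next 2182), B cell markers (124), costimulation (579), class I presentation (30410, next 38030), the CD4 T cell list (72.3) and the other class II genes (16.2). By the mean of log2 values A128 was the lowest DMSO mouse for macrophage markers too (10.01, against 10.1 in A105).

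No gene of the marker lists passed the threshold between A10i and DMSO, and neither did any other of the 16792 genes tested. All 10 macrophage markers had higher fitted levels in A10i hearts (median 0.39), 5 of them with an unadjusted edgeR p under 0.05, and without A128 these numbers were 9 and 2 (median 0.30). The 7 markers of resident cardiac macrophages were all higher (median 0.39, 3 under 0.05), and as many were so without A128. All 9 neutrophil markers tested were lower (median -1.84), 9 of them with an unadjusted edgeR p under 0.05, and 8 without A128. Their summed levels were 408.5 to 1552 in A10i and 2259 to 4585 in DMSO hearts, which did not overlap. The CD4 T cell list summed to 111 to 135 in A10i and 72.3 to 91.7 in DMSO hearts, again without overlap. The mean of its log2 values did overlap (2.91 to 3.39 in A10i and 2.69 to 3.11 in DMSO). Among its untested genes of few counts, Cd3d, Cd3g, Trbc1 and Trbc2 had lower means in A10i than in DMSO, and Cd3e and Foxp3 higher ones. The part of any of these cells in the class II differences was not tested.

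**Figure D4:**
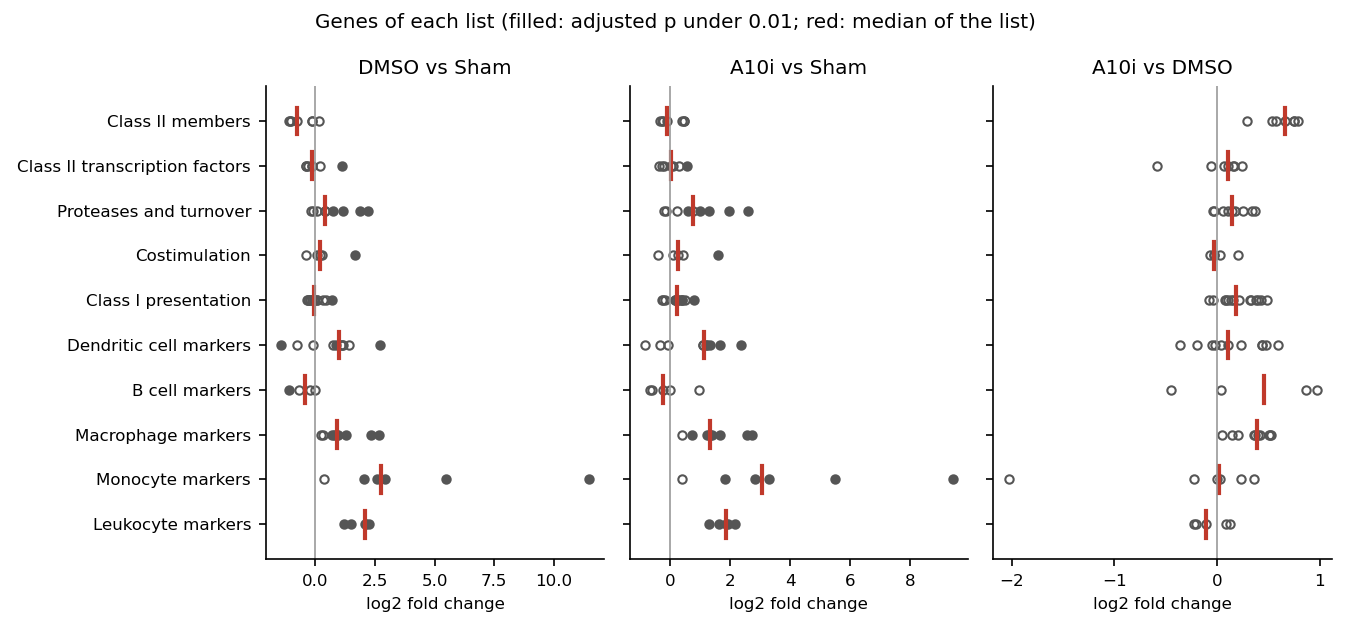
Log2 fold changes (x axis, scaled separately in each panel) of the tested genes of each list, one row per list and one panel per comparison, with filled points past an adjusted p of 0.01 and the list median in red. The class II members lie at a median of -0.76 in DMSO against sham. There the protease, macrophage, monocyte and leukocyte lists have their medians right of 0. In A10i against DMSO no point is filled.

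Genes whose profile over the mice was most like that of H2-Aa, H2-Ab1, H2-Eb1 and Cd74 were ranked by the mean absolute difference of centred log2 values from the mean of these 4. Their own distances were 0.04 to 0.08 log2 units. Over all 11 libraries the nearest others were Bmp7 (0.243), BC028528 (0.259) and Cmpk2 (0.26), and over the 8 infarcted hearts they were the chemokine Ccl5 (0.193), Ciita (0.202), Ptprv (0.207) and H2-DMb1 (0.226). The median over 17480 genes was 0.537 and 0.541. Ciita and H2-DMb1 were thus among the 4 nearest in infarcted hearts and not among the 10 nearest once sham hearts were included.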

How the data were processed

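The authors enriched poly(A) RNA from each heart, made strand-specific libraries, aligned reads to mm10 with GSNAP and counted them on Ensembl genes with featureCounts (2.0.1), per the labels and methods. The deposited table holds raw counts per gene, not normalized, for 11 libraries. Symbols came from the reference annotation for 55154 of 55421 genes. The 92 spike-in rows (at most 0.000194% of a library) were left out. Each comparison used its own libraries, filterByExpr, TMM factors and the robust quasi-likelihood test of edgeR 4.0.16 in R 4.3.3, two-sided. P-values were adjusted after Benjamini-Hochberg, and genes were called under 0.01. Normalized counts used TMM factors over all 11 libraries. Single values and ratios were tested by exact permutation over mice, on log2 of normalized counts plus 2. DESeq2 1.42.0, limma-voom (limma 3.58.1), other normalizations and filters, a joint fit, calls under 0.05 and leaving out each mouse in turn were alternatives, and the code was tested on simulated data. All 8 members are named. The rule allowed naming list genes past the threshold and defining genes, of which a part is named, and genes set beside them were chosen after their values were seen. Members and lists were chosen with earlier results of these data known, and lists without A128 were added after seeing the data. For genes of few counts, such as Cd209a, Ciita and the H2-DM pair, counting error is a large part of the spread between mice. Some listed genes are not reported here.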

Additional observations from a re-analysis of the deposited data

Results flagged for a closer look

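In DMSO hearts mouse A128 stood apart from the other 3 for 5 of the 8 genes. Its gap to the nearest mouse, as a share of the whole range of the 4 DMSO mice, was 0.867 for H2-Aa, 0.868 for H2-Ab1, 0.841 for H2-Eb1, 0.89 for Cd74 and 0.905 for Ciita, each above the 95% critical value of Dixon's test for 4 samples. Chance marks about 1 in 20 groups, and these 5 genes share the same mice, so the 5 values are not independent. No A10i mouse stood apart by this measure, and the sham group, with 3 mice, was not tested. The cause was not tested.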

How the results depend on the processing

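The number of members past the threshold in DMSO against sham was 0, became 2 at an adjusted p under 0.05 (H2-Aa and H2-Eb1), and ranged from 0 to 3 when 1 mouse was left out, with 3 only without A128. In the other comparisons it was 0 under all alternatives run, DESeq2 and limma-voom included. Calls over all genes moved more than those of the members. Without 1 sham mouse they numbered 1525 to 1542 in DMSO against sham and 1620 to 1714 in A10i against sham, in place of 3858 and 3879, and at 0.05 they numbered 6832 and 6671. In A10i against DMSO edgeR called 0, DESeq2 227, an unfiltered fit 43, a fit of all libraries 11, and edgeR 12 at 0.05. Scaling by library size alone shifted the median log2 fold change of all genes to 0.208 in DMSO and 0.181 in A10i against sham, and the small values of H2-DMb1 (0.0854) and Ciita (0.0889) in DMSO and of H2-Ab1 (0.10) in A10i against sham then turned positive. Leaving out 1 mouse, the DMSO against sham value ranged from -0.0323 to 0.38 for H2-DMa, from -0.28 to 0.0642 for H2-DMb1 and from -0.29 to 0.17 for Ciita, and the A10i against sham value of H2-Ab1 from -0.26 to 0.0534. In A10i against DMSO the ratio over H2-Aa ranged from -0.0482 to 0.0304 for Cd74 and from -0.0380 to 0.0315 for H2-Eb1. None of these values passed the threshold in any fit, and beyond the shift in scale the cause was not tested. Without 1 mouse, comparisons of ratios with sham could not reach 0.05 in an exact test and were kept as values. H2-Aa over Ptprc between A10i and DMSO had an exact permutation p of 0.0571 to 0.0857 without A128 or any 1 of the A10i mice. With a prior count of 0.5 or 8 no ratio changed direction, and with 8 H2-DMa over H2-Aa between A10i and DMSO came to an exact permutation p of 0.0286, before adjustment. That ratio also did so without A127, as did H2-Ab1 without A128, H2-DMb1 without A129 and Ciita over H2-Aa without A116. In the 150 bases before the start, 10.9% of promoters held GATTGG, 4.92% held ACNGATG and 0.508% held both. No paired analysis was possible because the groups share no replicate numbers. Counts near those of Cd209a (2 to 17) limit what can be seen for such genes.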
